A study of Mus musculus with 17 samples.

Results

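The proteasome genes of mouse colon are described here, taken as the entries of the count table whose symbol starts with Psma, Psmb, Psmc, Psmd, Psme, Psmf or Psmg followed by a digit. The rule found 54 of the 23719 entries, and 48 of them had enough counts to be tested. RNA was sequenced from the colons of 17 male C57BL/6 mice aged 32 to 34 weeks, 9 in the control group and 8 in the GWI group. GWI mice drank pyridostigmine bromide (PB), a reversible acetylcholinesterase inhibitor, at 2 mg/kg for 7 days, and controls drank water without it. After PB was withdrawn the mice recovered for 21 days, and colons were taken at day 30 to model Gulf War illness. No genetic change is stated for either group, and the sequenced samples were colon explants whose tissue layers are not named.

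The proteasome degrades proteins that carry ubiquitin chains. Its barrel, the 20S core, stacks outer rings of alpha subunits on inner rings of beta subunits, and the 19S cap recognises, unfolds and feeds in the substrate. Under interferon gamma, and constitutively in many immune cells, the catalytic beta subunits Psmb5, Psmb6 and Psmb7 are replaced during assembly by Psmb8, Psmb9 and Psmb10 to form the immunoproteasome, and the 11S activator of Psme1 and Psme2 can take the place of the cap, which changes the peptides available for presentation on MHC class I.

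The total count per mouse ran from 16744096 to 20741212 in controls (median 17761682) and from 16293537 to 18389686 in GWI mice. The proteasome genes together took 0.321% to 0.610% of the counts of a control mouse, with a median of 0.460%, and 0.344% to 0.417% of those of a GWI mouse, with a median of 0.402%. Levels below are CPM, counts per 1000000 of a library, on library sizes scaled by TMM, a method of edgeR that sets the bulk of genes equal between mice. In bulk tissue, fewer cells of a type and less RNA per cell cannot be told apart.

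Control replicates 1 and 9 stood apart from the other controls. Control replicate 1 had the lowest control level of 32 of the 48 tested members, while Control replicate 9 had the highest of 17 members and the lowest of 13. The 14 genes of the standard 20S core summed to 1242 CPM in Control replicate 1, the lowest of all 17 mice, and to 3092 CPM in Control replicate 9, the highest, against 1598 to 2333 CPM in the other 7 controls. On the first principal component of all tested genes these mice also had the most extreme scores, -72.0 for Control replicate 1 and 58.2 for Control replicate 9. The 10 most abundant genes of Control replicate 9 took 23.1% of its counts, against 9.72% to 17.3% in the other controls. Results are therefore also given without both mice, a fit chosen after the data were seen.

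Of the 48 tested members, 19 were lower in the GWI group, where 13.5% of all 14146 tested genes were lower. A call needed an adjusted p below 0.05 in edgeR's quasi-likelihood test. The 19 include Psmc3ip, which shares the symbol pattern but is not a proteasome subunit. In the same edgeR test 0 members were higher, against 13.4% of all genes; either way, 26.8% of all genes were called. All 25 members with an unadjusted p under 0.05, a threshold that 41.4% of all genes passed, were lower, so that 0 were higher by that rule. DESeq2's Wald test called 22 members lower and 0 higher, where it called 17.3% of all genes lower and 15.3% higher. The log2 fold change of GWI against Control was negative for 44 of the 48 members, with a median of -0.26, whereas 55.2% of all tested genes were negative and their median was -0.056. Changes were modest, the strongest being -0.59 for Psmb3. The threshold of the study's methods is an unadjusted p under 0.05 with an absolute log2 fold change over 1. The study used it with DESeq2's Wald test. Applied here to the edgeR fit, it was met by 0 members and by 2.42% of all tested genes. For 0 members did the groups separate fully, as they did for 2.35% of all tested genes (0.523% lower and 1.83% higher), although all 8 GWI mice lay below the control median for 31 of the 48 members, as for 18.3% of all tested genes.

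**Figure D1:**
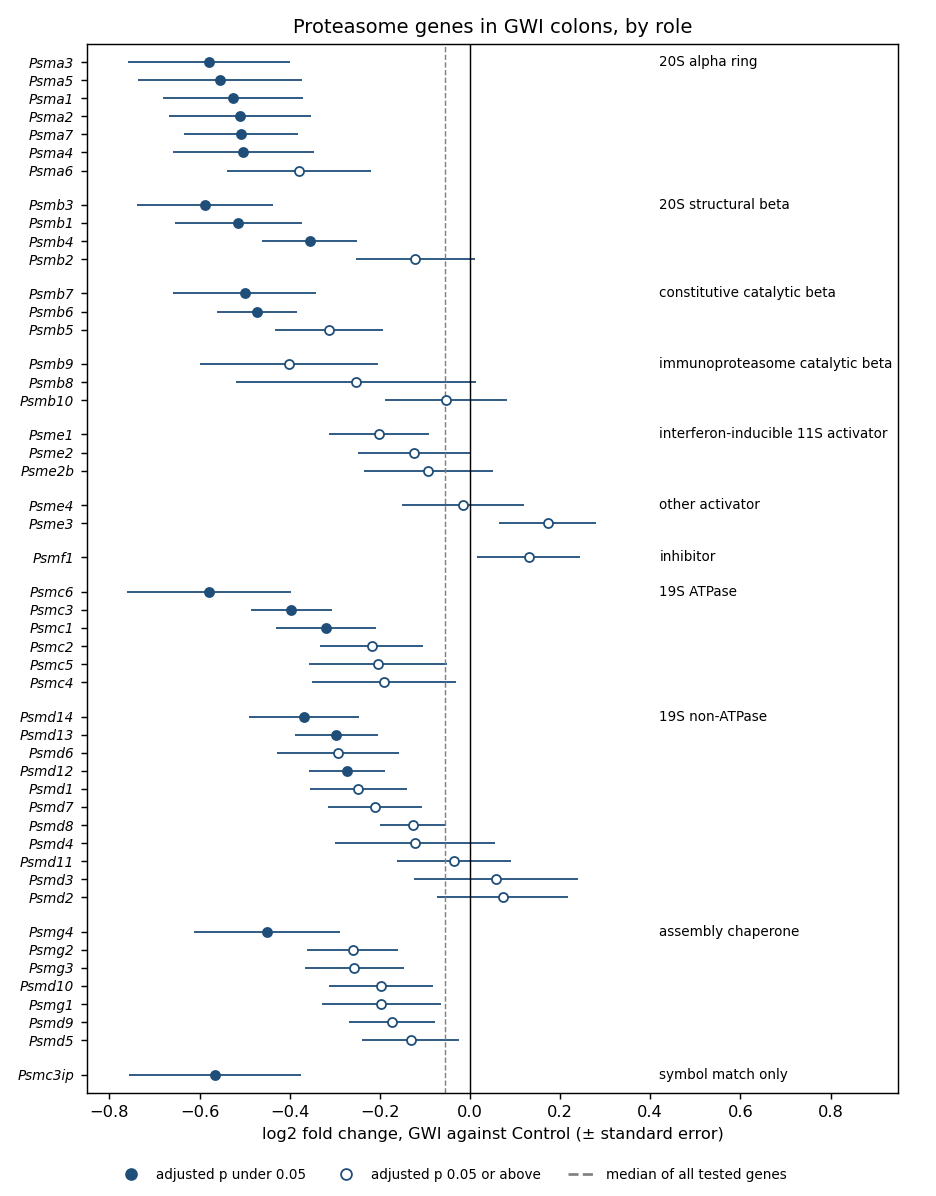
Log2 fold change of GWI against Control (horizontal axis) for the 48 tested members, grouped by role, as fitted values with standard errors from edgeR; filled points have an adjusted p under 0.05 and the dashed line is the median of all tested genes, -0.056. The filled points lie left of 0 and most belong to the 20S core, with 11 of its 14 standard genes.

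The calls were unevenly spread over the roles, beside 13.5% of all tested genes lower and 13.4% higher. The standard 20S core, made of alpha, structural beta and constitutive catalytic beta genes, had 11 of 14 genes lower and a median log2 fold change of -0.51. The 19S cap had 6 of 17 genes lower and a median of -0.22. Of the 5 immunoproteasome and activator genes Psmb8, Psmb9, Psmb10, Psme1 and Psme2, edgeR called 0 in either direction, with a median of -0.20; 0 had an unadjusted p under 0.05, DESeq2 called 0, and limma-voom called 2 lower. A gap between these counts is not a test of the difference between roles, which was made only for 3 pairs of catalytic genes given further below.

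Without Control replicates 1 and 9, 32 members were lower and 0 higher, where 19.6% of all genes were lower and 19.7% higher, with 13 of 14 standard core genes, 12 of 17 cap genes and 2 of the 5 immunoproteasome and activator genes. The number lower was 35 with limma-voom, which called 29.5% of all genes lower, 10 once trends with GC and length were taken out (11.8% of all genes), and 5 with a leukocyte score as covariate (15.6% of all genes). Psma6, Psmb2, Psmb5, Psmb9, Psmc4 and Psme1 were among the members that limma-voom added; below, a gene is named as called by edgeR unless another tool is given. The number lower ran from 14 to 25 over the refits that each drop a mouse, in which 9.21% to 16.3% of all genes were lower.

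The alpha ring closes the ends of the core and gates the entry of substrate. All 7 alpha genes had negative log2 fold changes and 6 were lower in edgeR's test. Psma3, whose fold change was the strongest of the ring, had 98.9 CPM in the lowest control, 155 in the median and 329 in the highest, against 95.3, 110 and 133 CPM in GWI mice. The highest control was replicate 9 and the lowest replicate 1, and apart from replicate 1 only Control replicate 6, at 115 CPM, lay within the GWI range. GWI against Control gave a log2 fold change of -0.58 (SE, its standard error, 0.18; Benjamini-Hochberg adjusted p = 0.0244 in edgeR's quasi-likelihood test), and for Psma3 it was -0.38 without Control replicate 9 and -0.46 without Control replicates 1 and 9.

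For Psma7, Control replicate 9 lay beside other controls. The gene had 86.6 to 177 CPM in controls, with a median of 159, and 87.5 to 112 CPM in GWI mice, with a median of 105. In 7 of the 9 controls the level was above every GWI mouse, and Control replicate 1 was below them all. Fitted over all mice, the log2 fold change was -0.51 (SE 0.13), with an adjusted p of 0.00871 in edgeR's quasi-likelihood test, the smallest of the ring.

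The other alpha genes moved to a like degree. Log2 fold changes were -0.53 for Psma1, -0.51 for Psma2, -0.50 for Psma4 and -0.55 for Psma5, with adjusted p from 0.0195 for Psma1 to 0.0314 for Psma5 in edgeR's quasi-likelihood test. For each of these 4 genes Control replicate 1 was the lowest control and Control replicate 9 the highest. The call of Psma5 held in 9 of the 17 refits that each drop a mouse, with an adjusted edgeR p of up to 0.0585 without GWI replicate 4. Those of Psma1, Psma2, Psma3, Psma4 and Psma7 held in all 17.

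Psma6 was the most abundant member per length, at 164 CPM per kilobase of exon on average in controls and 126 in GWI mice. It ranged from 113 to 351 CPM in controls (median 196) and from 120 to 174 CPM in GWI mice (median 160). Here 7 controls lay above all GWI mice and Control replicate 1 below them. The log2 fold change was -0.38 (SE 0.16) and missed the threshold, with an adjusted p of 0.0830 in edgeR's quasi-likelihood test. Without Control replicate 1 Psma6 was at -0.44, with an adjusted edgeR p of 0.0159. Without Control replicate 9 it was at -0.23, with an adjusted edgeR p of 0.149. Psma8, the alpha subunit of spermatocytes, had 0 to 4 counts per mouse and was not tested.

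Among the beta subunits without a known catalytic role, Psmb1, Psmb3 and Psmb4 were lower in edgeR's test and Psmb2 was not. Psmb3 had 67.0 to 193 CPM in controls, with a median of 123, and 73.3 to 85.1 CPM in GWI mice, with a median of 79.2. All controls but replicate 1 lay above the whole GWI group, and replicate 1 lay below it. On the log2 scale GWI against Control stood at -0.59 (SE 0.15, adjusted p = 0.0101 in edgeR's quasi-likelihood test).

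Psmb1 showed the same order of mice, with 120 to 338 CPM in controls (median 208) and 132 to 157 CPM in GWI mice (median 149), a log2 fold change of -0.51 with an adjusted p of 0.0142 in edgeR's quasi-likelihood test. Psmb4, the beta subunit that joins a forming core last, had 160 to 295 CPM in controls (median 229) and 164 to 191 CPM in GWI mice (median 172). Control replicate 4 and not replicate 9 was highest for this gene, and its log2 fold change was -0.36 (adjusted p = 0.0199 in edgeR's quasi-likelihood test). Psmb2 had 38.9 to 83.8 CPM in controls (median 61.9) and 44.2 to 62.9 CPM in GWI mice, and a log2 fold change of -0.12 (adjusted p = 0.504 in edgeR's quasi-likelihood test) that was -0.30 and passed with limma-voom and turned to 0.059 after GC and length trends were removed.

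The constitutive catalytic genes Psmb6 and Psmb7 were lower in GWI colons and Psmb5 was just short of the threshold. Psmb6 (ENSMUSG00000018286.6, chr11:70525367-70527858, plus strand) encodes the subunit that cuts after acidic residues. Its controls ran from 93.0 CPM in replicate 1 through a median of 131 to 156 CPM in replicate 4, and its GWI mice from 82.2 through 91.0 to 100.1 CPM. Of the 8 GWI mice, 6 lay below every control and the other 2 overlapped only Control replicate 1. With a log2 fold change of -0.47 (SE 0.089), it had the smallest adjusted p of all members, 0.00189 in edgeR's quasi-likelihood test, and it passed 0.05 in all 17 fits that left out 1 mouse and in each of the 13 other fits.

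Psmb7 (ENSMUSG00000026750.6, chr2:38588036-38644087, minus strand) encodes the subunit with trypsin-like activity. It had 72.3 to 210 CPM in controls, with a median of 117, and 69.0 to 98.5 CPM in GWI mice, with a median of 85.8. Control replicate 9 was far above the rest, 7 controls were above all GWI mice, and replicates 1 and 6 lay within the GWI range. GWI against Control gave a log2 fold change of -0.50 (SE 0.16, adjusted p = 0.0274 in edgeR's quasi-likelihood test) and -0.43 without Control replicates 1 and 9. Exons of Nek6 on the opposite strand cover 11.8% of its exon length, so its count is uncertain where strand was not used.

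Psmb5 (ENSMUSG00000022193.7, chr14:54614119-54618022, minus strand) encodes the subunit with chymotrypsin-like activity, the target of the drug bortezomib. The microRNA gene Mir686 on the same strand covers 12.1% of its exon length. Its controls had 73.6 to 162 CPM with a median of 109, and its GWI mice 83.7 to 98.9 CPM with a median of 89.1. All 8 GWI mice were below the control median, while Control replicate 1 was below all of them. The log2 fold change was -0.31 (SE 0.12, adjusted p = 0.0607 in edgeR's quasi-likelihood test). For Psmb5 the adjusted edgeR p was 0.0138 without Control replicate 1 and 0.0498 without Control replicate 9.

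The immunoproteasome genes Psmb8, Psmb9 and Psmb10 had negative log2 fold changes that did not pass the test. Psmb8 (ENSMUSG00000024338.15, chr17:34197721-34201454, plus strand), the replacement of Psmb5, had 10.9 to 62.4 CPM in controls with a median of 28.4, and 11.8 to 38.8 CPM in GWI mice with a median of 23.3. Both groups spread widely and overlapped almost entirely, with Control replicate 8 alone above the GWI range and Control replicate 1 alone below it. The log2 fold change of -0.25 had an SE of 0.27, larger than itself, and an adjusted p of 0.486 in edgeR's quasi-likelihood test. Without Control replicate 8 Psmb8 was at -0.054, and with the leukocyte score as covariate at 0.050.

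Psmb9 (ENSMUSG00000096727.3, chr17:34181987-34187764, minus strand), the replacement of Psmb6, had 8.97 to 38.1 CPM in controls with a median of 19.3, and 12.3 to 18.6 CPM in GWI mice with a median of 14.9. All 8 GWI mice were below the control median, and 6 controls were above every GWI mouse. Its fold change on the log2 scale was -0.40 (SE 0.20, adjusted p = 0.131 in edgeR's quasi-likelihood test). The size moved with single controls, as it was -0.22 without Control replicate 8 and passed 0.05 without Control replicate 1, at -0.49 with an adjusted edgeR p of 0.0320. Exons of Tap1, the neighbouring peptide transporter gene on the opposite strand, cover 5.8% of its exon length, and antisense exons of Gm20496 cover 14.7% of that of Psmb8.

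Psmb10 (ENSMUSG00000031897.9, chr8:105935735-105938444, minus strand), the replacement of Psmb7, was level between the groups. It had 75.7 to 146 CPM in controls with a median of 102, and 91.2 to 123 CPM in GWI mice with a median of 104. Control replicates 1 and 9 were below the GWI range and 4 controls were above it. On the log2 scale GWI against Control stood at -0.053 (SE 0.13, adjusted p = 0.785 in edgeR's quasi-likelihood test), and without Control replicate 2 Psmb10 was just above 0, at 0.0087.

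**Figure D2:**
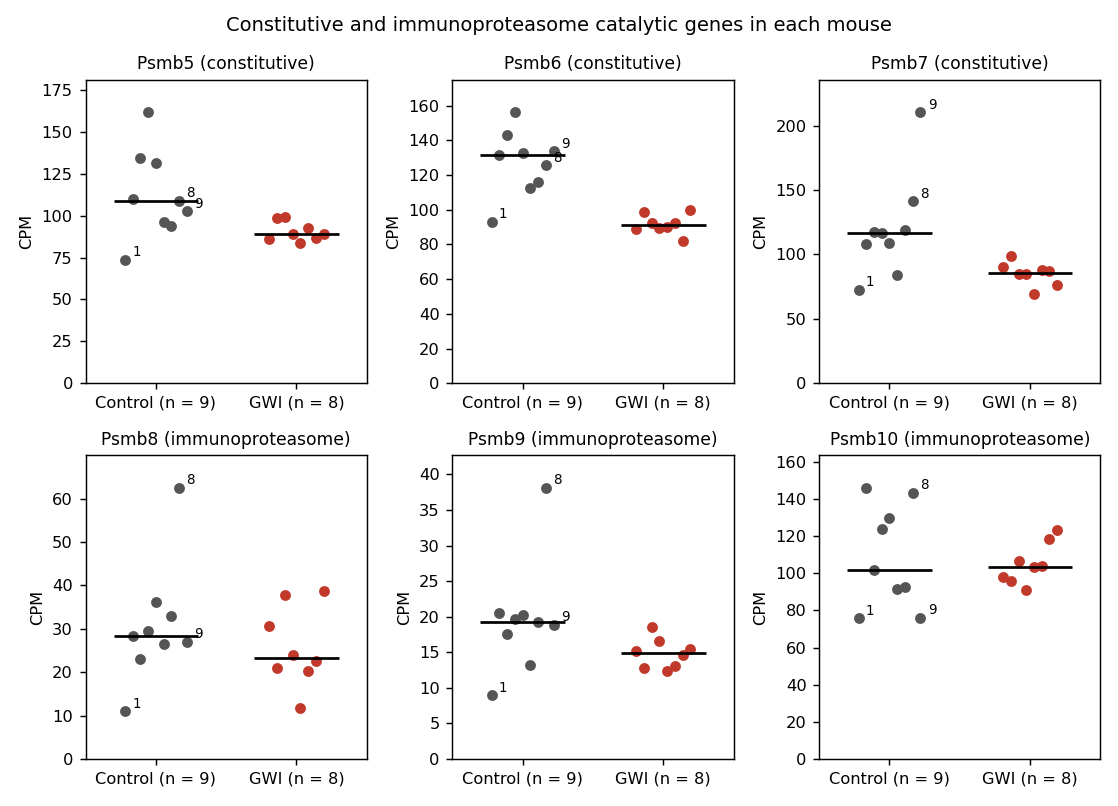
CPM of the constitutive genes (top row) and of the immunoproteasome genes that replace them (bottom row) in each of 9 Control and 8 GWI mice; each point is a mouse, bars are group medians, and Control replicates 1, 8 and 9 are numbered. Psmb6 drops from a control median of 131 to 91.0 CPM with little overlap, while Psmb8 and Psmb10 overlap broadly.

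Levels per length set the immunoproteasome genes apart from each other. In controls Psmb8 averaged 9.10 and Psmb9 5.35 CPM per kilobase of exon, against 125 for Psmb5 and 67.9 for Psmb6. Psmb10 averaged 63.9 CPM per kilobase, above the 35.0 of its constitutive counterpart Psmb7. Before division by length the control means had the other order, 109 CPM for Psmb10 and 120 CPM for Psmb7. In GWI mice they were 105 and 84.7 CPM. As a share of the pair per kilobase, Psmb8 made up a median of 6.53% in controls (3.80% to 13.2%) and 6.58% in GWI mice (3.61% to 10.4%), and Psmb9 6.71% (4.70% to 13.4%) and 7.67% (6.23% to 9.32%). Psmb10 made up 67.8% (42.0% to 73.1%) and 71.0% (66.2% to 76.5%). Exon length here is the union of the exons annotated for a gene, which can be longer than the transcript made in colon. It was 1705 bases for Psmb10 and 3421 for Psmb7, and 3381 for Psmb8 and 899 for Psmb5. The levels per kilobase and the shares depend on these lengths.

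The balance of immunoproteasome to constitutive gene was tested as a log2 ratio within each mouse, by exact permutation over all 24310 splits of the 17 mice, two-sided, with p adjusted over the 3 pairs. The log2 ratio of Psmb8 to Psmb5 ran from -2.75 to -0.80 in controls (median -1.93) and from -2.82 to -1.20 in GWI mice (median -1.92). Its mean was 0.067 higher in GWI mice (exact permutation p = 0.810, adjusted p = 0.810), with 4 of the 8 GWI mice above the control median. The group means were thus less far apart than the mice of either group, and the sign of this difference turned without Control replicates 1 or 3 or GWI replicates 3 or 8.

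For Psmb9 to Psmb6 the log2 ratio ran from -3.37 to -1.72 in controls (median -2.83) and from -2.94 to -2.31 in GWI mice (median -2.62). The mean was 0.14 higher in GWI mice, where 6 of 8 mice lay above the control median (exact permutation p = 0.465, adjusted p = 0.697). Control replicate 8 had the highest ratio of all mice and Control replicate 1 the lowest, and the difference was 0.27 without the former and 0.068 without the latter.

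For Psmb10 to Psmb7 the log2 ratio ran from -1.47 in Control replicate 9 to 0.44 in Control replicate 2 (median 0.066), and from -0.036 to 0.70 in GWI mice (median 0.29). The mean was 0.43 higher in GWI mice, 7 of which lay above the control median (exact permutation p = 0.0360, adjusted p = 0.108). The difference fell to 0.26 without Control replicate 9, the lowest mouse by a wide margin, and without Control replicate 2 it was 0.50 with an adjusted exact permutation p of 0.0345 for Psmb10 to Psmb7. So a shift of balance between the 2 kinds of catalytic gene was not established for any pair at the adjusted threshold.

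In edgeR's test 0 activators of the core were called, and limma-voom called Psme1 lower. The 1 member that limma-voom called higher lay outside the standard core, the cap and the 5 immunoproteasome and activator genes, and was not followed by name. Psme1 encodes the alpha and Psme2 the beta subunit of the 11S activator. Psme1 had 58.2 to 124 CPM in controls (median 96.7) and 72.1 to 95.1 CPM in GWI mice (median 83.7), all 8 of them below the control median. Its log2 fold change was -0.20 (SE 0.11, adjusted p = 0.178 in edgeR's quasi-likelihood test), and without Control replicate 1 it was -0.26 with an adjusted edgeR p of 0.0229.

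Psme2 had 117 to 244 CPM in controls (median 192) and 140 to 193 CPM in GWI mice (median 172), with a log2 fold change of -0.12 (adjusted p = 0.463 in edgeR's quasi-likelihood test). Over the refits that each drop a mouse, the fold change of Psme2 ran from -0.18 to -0.066. Control replicate 8 was the highest control for Psme1 and Psme2, as it was for Psmb8 and Psmb9. Psme2b is a near copy of Psme2, so reads may have been split between them; it had 6.57 to 15.0 CPM in controls and 8.61 to 10.4 CPM in GWI mice. Psme3, the nuclear activator, and Psmf1, an inhibitor of the core, were among the 4 members with positive log2 fold changes, at 0.17 and 0.13, and Psme4, an activator linked to histone turnover, had -0.015. None of these 3 passed the test, with adjusted p from 0.231 to 0.944 in edgeR's quasi-likelihood test.

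The 6 ATPases of the 19S cap form the ring that unfolds the substrate and opens the gate of the core. All had negative log2 fold changes and Psmc1, Psmc3 and Psmc6 were lower. Psmc3 had 132 to 216 CPM in controls (median 175) and 132 to 144 CPM in GWI mice (median 135). Every control but replicate 1 lay above all 8 GWI mice, and replicate 1 lay at the low end of the GWI range. Fitted over all mice, the log2 fold change was -0.40 (SE 0.090, adjusted p = 0.00547 in edgeR's quasi-likelihood test). Exons of Slc39a13 on the opposite strand cover 8.2% of its exon length.

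Psmc6 had 86.3 to 282 CPM in controls (median 129) and 82.0 to 101 CPM in GWI mice (median 89.0). Control replicate 9 had about double the level of the next control, at 282 against 139 CPM. With that mouse the log2 fold change was -0.58 (SE 0.18, adjusted p = 0.0260 in edgeR's quasi-likelihood test), without Control replicate 9 it was -0.36, and without Control replicates 1 and 9 it was -0.43. Psmc1 had 99.1 to 171 CPM in controls (median 118) and 92.9 to 114 CPM in GWI mice (median 100.3), a log2 fold change of -0.32 (adjusted p = 0.0414 in edgeR's quasi-likelihood test). The call of Psmc1 held in 6 of the 17 refits that each drop a mouse and was lost without, among others, Control replicate 5 (edgeR's quasi-likelihood test, adjusted p = 0.0872).

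Psmc2, Psmc4 and Psmc5 had log2 fold changes of -0.22, -0.19 and -0.20. In contrast to Psmc6, their lowest control was replicate 9, which had 38.9 CPM of Psmc4 where the GWI mice had 62.4 to 71.0. Psmc4 had the largest p of the ring (adjusted p = 0.376 in edgeR's quasi-likelihood test), and its log2 fold change was -0.43 and passed with limma-voom but 0.10 with a muscle score as covariate. The ATPases are assembled in equal numbers in the cap, yet in Control replicate 9 their transcripts went opposite ways.

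Of the 11 non-ATPase genes of the cap, 3 were lower in GWI colons, where 13.5% of all tested genes were lower. Psmd14 encodes the enzyme that removes ubiquitin chains from bound substrate. It had 46.7 to 93.8 CPM in controls (median 72.4) and 44.7 to 61.9 CPM in GWI mice (median 56.0), with 7 controls above all GWI mice. Its fold change on the log2 scale was -0.37 (SE 0.12, adjusted p = 0.0328 in edgeR's quasi-likelihood test), and the call held in 9 of the 17 refits that each drop a mouse, with an adjusted edgeR p of up to 0.0668 without GWI replicate 7.

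Psmd12 and Psmd13, scaffold subunits of the lid, had narrower controls. Psmd12 ranged from 59.4 to 86.1 CPM in controls (median 77.9) and from 53.7 to 68.6 CPM in GWI mice (median 61.1), a log2 fold change of -0.27 (adjusted p = 0.0238 in edgeR's quasi-likelihood test). It had the smallest p of the non-ATPase genes. Psmd13 ranged from 114 to 178 CPM in controls (median 142) and from 106 to 122 CPM in GWI mice (median 113), and had a log2 fold change of -0.30 (adjusted p = 0.0246 in edgeR's quasi-likelihood test). For Psmd13, 4 GWI mice lay below every control and 5 controls above every GWI mouse, and exons of Sirt3 on the opposite strand cover 10.1% of its exon length.

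The other 8 non-ATPase genes did not pass the test. Psmd2 and Psmd3, large scaffold subunits, had positive log2 fold changes of 0.07 and 0.06. For Psmd2 all 8 GWI mice were above the control median, with 196 to 238 CPM against a control range of 114 to 297 CPM, and the lowest control was replicate 9. Psmd11, another lid subunit, had the largest p (log2 fold change -0.036, adjusted p = 0.849 in edgeR's quasi-likelihood test), and its sign turned under several settings, for example to 0.10 after GC and length trends were removed. The remaining 5 genes Psmd1, Psmd4, Psmd6, Psmd7 and Psmd8 had log2 fold changes from -0.29 to -0.12.

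The chaperones that help assemble the core (Psmg1 to Psmg4) and the base of the cap (Psmd5, Psmd9 and Psmd10) are not part of the finished particle. All 7 were negative on the log2 scale (median -0.20), and 1 was called lower, where 13.5% of all tested genes were lower. Psmg4 had few reads, 74 to 195 counts per mouse, which is 4.67 to 11.8 CPM in controls (median 8.47) and 4.86 to 7.51 CPM in GWI mice (median 6.35). In 7 controls it was above all GWI mice. Its log2 fold change was -0.45 (SE 0.16, adjusted p = 0.0465 in edgeR's quasi-likelihood test), but the call held in only 2 of the 17 refits that each drop a mouse, without Control replicate 1 and without Control replicate 6. Psmd5 had the largest p among the chaperones, with a log2 fold change of -0.13 (adjusted p = 0.357 in edgeR's quasi-likelihood test). Without Control replicate 9 Psmd5 was at -0.046, with an adjusted edgeR p of 0.687.

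Some entries share the symbol pattern without being a subunit. Psmc3ip encodes a cofactor of meiotic recombination and had 2.02 to 5.23 CPM in controls (median 3.37) and 1.56 to 3.06 CPM in GWI mice (median 2.67). It was lower with a log2 fold change of -0.57 (adjusted p = 0.0355 in edgeR's quasi-likelihood test), a call that held in 10 of the 17 refits that each drop a mouse, and exons of Mlx on the opposite strand cover 21.2% of its exon length. The pseudogenes Psmb5-ps, Psmb6-ps, Psmb6-ps2 and Psmb7-ps2 had 0 to 3 counts per mouse. Psmb11, the catalytic subunit of the thymus, had 0 or 1 count. These 5 failed the filter, as Psma8 did, so little is known of them at this depth.

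The mice of each group differed in a way that ran through whole roles. Among GWI mice, replicate 5 was lowest for 31 of the 48 members, and its standard core genes summed to 1311 CPM where the other 7 GWI mice had 1457 to 1639 CPM. Among controls, replicate 4 was highest for 19 members, mostly cap genes, with a 19S sum of 2496 CPM. Control replicates 3 and 5 followed at 2299 and 2259 CPM. The remaining controls had 1563 to 1873 CPM, which overlapped the 1533 to 1758 CPM of GWI mice. Control replicate 9 had the highest alpha ring sum, 1855 CPM, and one of the lower non-ATPase sums, 1028 CPM. The standard core sum was above all GWI mice in 7 controls, within their range in Control replicate 6 at 1598 CPM, and below it in Control replicate 1.

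**Figure D3:**
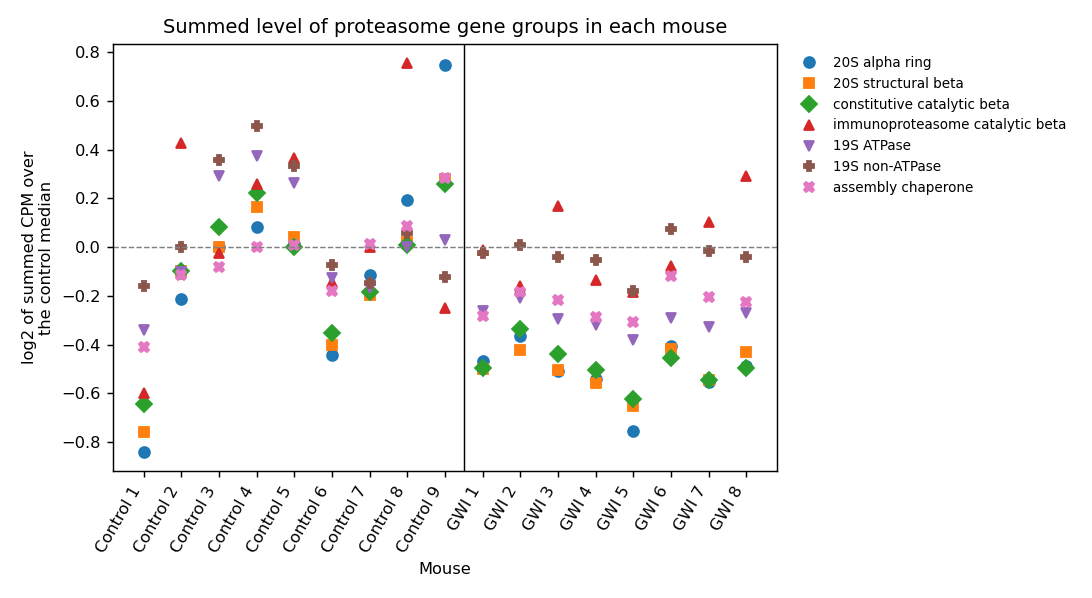
Summed CPM of 7 role groups in each mouse, as log2 of the ratio to the control median of that group (0 is the control median); the vertical line parts Control from GWI mice. The 3 groups of the standard core sit below 0 in all 8 GWI mice and in Control replicates 1, 2, 6 and 7, and the alpha ring of Control replicate 9 and the immunoproteasome genes of Control replicate 8 stand highest.

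Markers of cell types were read beside these results, with 13.5% of all tested genes lower and 13.4% higher in edgeR's test. Of 10 smooth muscle markers 7 were lower in GWI colons (median on the log2 scale -0.91), and their summed level was 3690 to 23923 CPM in controls (median 11584) and 3658 to 11832 CPM in GWI mice (median 5142), Myh11 being the most abundant. With a score of muscle against epithelium markers as covariate 19 proteasome members were lower (12.9% of all genes lower, 9.31% higher), but only 15 of them were the same genes; Psmb4, Psmc1, Psmc3ip and Psmd13 were lost, and Psma6 and Psmb9 were among those gained. Of 11 colon epithelium markers 5 were higher, with a median of 0.40 and a sum of 25549 to 41802 CPM in controls (median 30421) and 29570 to 47763 CPM in GWI mice (median 38014), Car1 being the most abundant. Of 14 tested leukocyte markers 13 had negative log2 fold changes, and Itgax was called lower; their median was -0.25. Jchain was the most abundant of these leukocyte markers. Their sum was 74.1 to 304 CPM in controls (median 169) and 79.5 to 200 CPM in GWI mice (median 137). With this list as covariate 5 of the 48 tested members were called lower. That share was below the 15.6% of all genes called lower in the same fit. Of 5 genes kept as a cytosolic comparison, 2 were lower to a degree like the core genes, Ppia (log2 fold change -0.72, adjusted p = 0.0110 in edgeR's quasi-likelihood test) and Hprt (-0.48), with Control replicate 1 lowest and Control replicate 9 highest among controls for both. Actb, Gapdh and Tbp (0.0034, 0.12 and 0.083) were not called. Beyond these fits, the part of tissue make-up in the result was not tested.

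The genes around the proteasome were taken from a list of 34 symbols for further subunits, assembly factors, regulators and ubiquitin genes, of which 29 were in the table and all 29 were tested. Of these 29 genes 6 were lower and 5 higher (median on the log2 scale -0.099), where 13.5% and 13.4% of all tested genes were. Pomp, the maturation factor that the core needs for assembly, had 89.1 to 194 CPM in controls (median 141) and 91.8 to 124 CPM in GWI mice (median 100.5). It was above all GWI mice in 7 controls and below them in Control replicate 1, and had a log2 fold change of -0.51 (SE 0.12, adjusted p = 0.00817 in edgeR's quasi-likelihood test). Sem1, the smallest cap subunit, which the symbol rule misses, was lower by the same test, with a log2 fold change of -0.48 and an adjusted edgeR p of 0.00970.

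Further genes that act at the cap or supply ubiquitin were lower too. Among them were the deubiquitinase Uchl5 (-0.38), the cap-bound thioredoxin Txnl1 (-0.41) and Rps27a (-0.79), which encodes ubiquitin fused to a ribosomal protein. The calls of Uchl5 and Txnl1 each held in 9 of the 13 other fits, where their weakest values were -0.076 and -0.19. Ubb, a polyubiquitin gene, had -0.12 and was not called.

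Ddi2 and Nfe2l1 form a known control loop for proteasome genes, in which Ddi2 cleaves the transcription factor made from Nfe2l1 and frees it to enter the nucleus when proteasome activity is short. Ddi2 was higher in every GWI mouse than in any control, with 69.6 to 99.1 CPM in controls (median 81.6) and 101 to 128 CPM in GWI mice (median 117); 1.83% of all tested genes separated fully in this direction. GWI against Control gave a log2 fold change of 0.53 (SE 0.074, adjusted p = 0.000353 in edgeR's quasi-likelihood test). Nfe2l1 had 141 to 260 CPM in controls (median 214) and 232 to 276 CPM in GWI mice (median 261), with 6 controls below all GWI mice. Its log2 fold change of 0.29 had an adjusted p of 0.0460 in edgeR's quasi-likelihood test and held in 4 of the 17 refits that each drop a mouse. The ubiquitin activating enzyme Uba1 (0.56), the ligase Ube3c (0.27) and the shuttle factor Ubqln1 (0.19) were also higher. Of the 13 other fits, the call of Ube3c held in 9 and that of Ubqln1 in 7. Their weakest values in those fits were 0.059 for Ube3c and 0.097 for Ubqln1.

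A list of 22 genes for interferon signalling and MHC class I presentation had 8 genes higher and 1 lower (median on the log2 scale 0.23). Of all tested genes 13.4% were higher and 13.5% lower. Ifng, the inducer of the immunoproteasome, had 16.8 to 675 CPM in controls (median 25.8) and 141 to 559 CPM in GWI mice (median 467). Control replicate 9 held 675 CPM, above every GWI mouse, and the other 8 controls were below all of them. Fitted over all mice, the log2 fold change was 2.11 (SE 0.73, adjusted p = 0.0394 in edgeR's quasi-likelihood test); it passed 0.05 in 3 of the 17 refits that each drop a mouse, and without Control replicate 9 it was 4.00 with an adjusted edgeR p of 9.99e-08. Psmb8, Psmb9 and Psmb10 in Control replicate 9 were at 27.0, 18.8 and 76.0 CPM, each below its control median. The leukocyte markers Cd3d, Cd3e, Cd3g, Cd4, Cd8a and Nkg7 had group means of only 0.55 to 2.64 CPM. Why Ifng stood so far above them was not tested.

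Irf1, the transcription factor between interferon gamma and the immunoproteasome genes, had 72.4 to 171 CPM in controls (median 114) and 156 to 201 CPM in GWI mice (median 171). Its log2 fold change was 0.60 (SE 0.13, adjusted p = 0.00480 in edgeR's quasi-likelihood test), with 8 controls below all GWI mice. Nlrc5, the transactivator of MHC class I and of Psmb9, had -0.31 and was not called (adjusted p = 0.339 in edgeR's quasi-likelihood test). Single mice moved Nlrc5, to -0.18 without Control replicate 8 and to -0.56 without GWI replicate 8, where its adjusted edgeR p was 0.0442. Of the peptide transporter, Tap2 had 0.28 and Tap1 had 0.061, which turned negative with upper-quartile scaling. The other genes called higher were Ifngr1 (0.50), Jak1 (0.26), Stat2 (0.41), Irf8 (0.38), Calr (0.70) and H2-K1 (0.44), and Ciita, the class II transactivator, was lower (-1.08). The calls of Ifngr1 and Irf8 each held in 4 of the 17 refits that each drop a mouse.

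Over both lists together 7 genes were lower and 13 higher, where 13.5% and 13.4% of all genes were. Upper-quartile factors gave 10 lower and 4 higher, but that scaling shifts all genes alike, and 21.2% of all genes were then lower and 8.58% higher. The split also moved with single mice, with 7 higher without GWI replicates 3, 4 or 6 and 3 lower and 8 higher without GWI replicate 7.

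The tested genes outside the rule that were most like Psmb8 over the 17 mice, by Pearson correlation of log2 CPM, were Cmpk2 (0.922), Gngt2 (0.874) and Fev (0.874). Those most like Psmb5 were Nsfl1c (0.911), Sod1 (0.854) and Mrps25 (0.843). The points are the same 17 libraries, with Control replicates 1, 8 and 9 among them. Of these genes, Nsfl1c and Mrps25 were lower in GWI colons, with log2 fold changes of -0.30 and -0.27.

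The members are short to middling genes in exon length, and length went with the log2 fold change over all genes. Within a mouse, the median deviation of the longest genes less that of the shortest was positive in 7 of 8 GWI mice and negative in 7 of 9 controls. The other 2 controls, replicates 1 (0.26) and 6 (0.071), were also the controls with the lowest standard core sums. Of the 48 tested members, 21 fell in the shortest of 5 length classes (59 to 2464 bases), where the median log2 fold change of all tested genes was -0.21 and 22.5% were lower, and 8 of those 21 members were lower. In the next class (2465 to 3747 bases) the median of all genes was -0.064 and 13.1% were lower, against 9 of 16 members. Psmf1, Psme4 and Psmd9, which are among the longest members, were not called. Among the 47 subunit and assembly genes left without Psmc3ip, the Spearman correlation of the log2 fold change with exon length was 0.11 and with GC content 0.21, taken across genes, which are not independent. Once trends with GC and length were taken out mouse by mouse, 10 members were lower, Psmb3 and Psmb6 among them. In that fit 11.8% of all genes were lower.

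A promoter window from 250 bases before to 50 after the start site was found for 42 of the 54 members in the RefSeq table of GRCm38.p6. The core letters of the antioxidant response element, TGACNNNGC, which the factor made from Nfe2l1 is known to bind, were searched on both strands and found in 6 members (Psmb5, Psmb6, Psmc6, Psmd12, Psmd9 and Psme4), 14.3% against 14.0% of all 27025 genes with a window. The letters of interferon-stimulated elements, GAAA and GAAA with 2 bases between, were in 5 members (11.9% against 3.99%), which were Psmb3, Psmd4, Psmd9, Psme1 and Psmg4. The letters of gamma-activated sites, TTCNNNGAA, were in Psmb8, Psmd2 and Psmg1 (7.14% against 9.55%), and the box CCAAT was in 15 members (35.7% against 41.1%). The interferon-stimulated matches of Psme1 and Psmg4 and the gamma-activated match of Psmd2 lay after the start site. For Psmb8 and Psmb9 the part before the start site lies in annotated exons. Letters found or missing there therefore say little about the promoters of these genes. Such matches are descriptions of the sequence and do not show binding.

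The stretches upstream of Psmb5 and Psmb6 are printed 5′ to 3′ on the strand of the gene, since both hold the antioxidant response letters, in capitals, close to the start. For Psmb5 it is chr14:54618023-54618245 on the minus strand, ending 28 bases before the start site because the 27 bases nearest to it are annotated exon, and for Psmb6 chr11:70525107-70525356 on the plus strand. Both lie in no annotated gene of GENCODE M21. The 250 bases upstream of Psmb8 and of Psmb9 lie wholly within annotated exons, of Psmb8 itself and of Psmb9 and Tap1, and are not printed.
Psmb5: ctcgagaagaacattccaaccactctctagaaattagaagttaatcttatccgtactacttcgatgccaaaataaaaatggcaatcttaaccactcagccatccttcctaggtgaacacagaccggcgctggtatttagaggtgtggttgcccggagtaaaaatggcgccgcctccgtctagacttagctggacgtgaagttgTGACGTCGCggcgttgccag
Psmb6: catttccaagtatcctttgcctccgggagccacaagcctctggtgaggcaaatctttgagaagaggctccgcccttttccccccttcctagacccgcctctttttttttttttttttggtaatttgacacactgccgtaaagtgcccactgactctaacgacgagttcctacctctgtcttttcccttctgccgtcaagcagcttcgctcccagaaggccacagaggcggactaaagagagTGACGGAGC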

How the data were processed

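After trimming by Trimmomatic 0.36 and alignment to GRCm38 by STAR 2.5.2b, the authors deposited raw counts of unique hits per gene for 17 mice, 1 column each; strand setting and annotation release are not stated. From these counts, genes passing filterByExpr were fitted in edgeR 4.0.16 (R 4.3.3; TMM, robust quasi-likelihood test, Benjamini-Hochberg adjustment over 14146 genes, called at 0.05). Log2 ratios within a mouse used a pseudocount of 0.5 and exact permutation. Alternatives used DESeq2 1.42.0, limma 3.58.1, other scalings and filters, marker scores, GC and length offsets (mgcv 1.9.3) and left-out mice. Scripts were tested on simulated data. Positions and lengths come from GENCODE M21 and start sites from RefSeq. Genes were named where called, in the catalytic pairs, or at the smallest and largest p of a role. Others were named after their values were seen. The members and lists were chosen with earlier results of these data known. Figures were drawn in Python 3.11.15 with matplotlib 3.10.9.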

Additional observations from a re-analysis of the deposited data

Results flagged for a closer look

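A mouse was marked where its gap to the nearest of its group was large against the range of the group (Dixon's rule). Of 66 groups tested 11 were marked, where chance marks about 1 in 20, and all 11 are Control groups, so that the marks repeat a few mice rather than add up. Control replicate 8 was highest for Psmb8 at 62.442 CPM (next 36.227) and Psmb9 at 38.098 CPM (next 20.458), and for the log2 ratio of Psmb9 to Psmb6 at -1.72 (next -2.587). Control replicate 9 was highest for Psmb7 at 210.35 CPM (next 141.29), Psma2 at 255.24 (next 157.48), Psma3 at 328.91 (next 193.76), Psma4 at 269.39 (next 170.66), Psma6 at 350.8 (next 230.3), Psmc6 at 282.28 (next 138.64) and Psmd5 at 71.442 (next 54.021). The same mouse was lowest for the log2 ratio of Psmb10 to Psmb7 at -1.468 (next -0.3657). Why these mice differ was not tested.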

How the results depend on the processing

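Against 19 members lower, Psmc3ip included, and 0 higher, limma-voom with quality weights gave 35 and 1 (all genes 29.5% and 27.6%). A leukocyte score as covariate gave 5 lower, a smaller share of the 48 members than the 15.6% of all genes. GC and length offsets gave 10 lower (11.8% of all genes). The threshold of the study gave 0 (1.77% of all genes lower, 0.65% higher). Refits without 1 mouse gave 14 to 25 lower and 0 higher (9.21% to 16.3% of all genes lower). Against 7 lower and 13 higher in the interferon and partner lists, upper-quartile factors gave 4 higher, limma-voom 12 and 21, no filter 8 higher (8.4% of all genes), the muscle score 4 higher (9.31%), the leukocyte score 3 lower (15.6%), GC and length offsets 4 lower (11.8%), and the threshold of the study 1 and 1; refits without 1 mouse gave 3 to 7 lower and 7 to 16 higher. Without Control replicates 1 and 9, chosen after seeing the data, 32 members were lower (19.6% of all genes).

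With the replicate number as a block 3 members were lower, and 3 partner genes lower and 8 higher (all genes 5.84% lower, 10% higher); with GC and length offsets too, 2 members lower, and 2 partner genes lower and 6 higher (5.04% and 9.85%). In both fits the share of members lower was near that of all genes. The numbers mark no known pairing: over 8 pairs the correlation of deviations ran from -0.506 to 0.115, and 0 mice matched their own number best. Some deposited column names share a prefix whose meaning is not stated. Grouping by prefix was not tested, and the mice were treated as independent.

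Only genes named by the rule were followed through the other fits, so Psme4, Psmd2 and Psmd3, near 0, were not. Among those followed, signs turned for Tap1 (-0.034 upper quartile, -0.070 muscle score, -0.088 offsets, -0.028 offsets with block, -0.080 without Control replicates 1 and 9, -0.012 to 0.22 without 1 mouse), Psmc4 (0.10 muscle score), Psmd11 (0.074 muscle score, 0.015 leukocyte score, 0.10 offsets, 0.034 offsets with block, -0.082 to 0.047 without 1 mouse), Psmb8 (0.050 leukocyte score), Psmb2 (0.0072 leukocyte score, 0.059 offsets, 0.019 offsets with block), Psmb10 (0.00030 offsets, 0.0010 offsets with block, -0.10 to 0.0087 without 1 mouse), Psme2 (0.019 offsets with block) and the median of all genes (0.046 muscle score, 0.0023 offsets, 0.032 offsets with block). The log2 ratio of Psmb8 to Psmb5 was -0.040 without Control replicates 1 and 9 and -0.033 to 0.21 without 1 mouse; that of Psmb9 to Psmb6 was 0.068 to 0.27 without 1 mouse; that of Psmb10 to Psmb7 was 0.26 to 0.50 without 1 mouse and passed without Control replicate 2. Among members Psmb3 and Psmb6, and among the other lists Pomp, Rps27a and Ddi2, passed in all 13 other fits. Offsets act by removing trends with GC and length. Why the counts moved in the other fits was not tested.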

Other observations

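Enteric neuron markers (7 of 7 tested, 0 called by edgeR's quasi-likelihood test) had a median log2 fold change of -0.58. Endothelium markers (3 of 3) had -0.58, with Kdr lower. Adipocyte markers (4 of 4) had 1.04, with Cidec higher. Small intestine markers (5 of 9 tested) had -0.41, with Alpi higher and Fabp6 lower. Of 7 pancreatic acinar markers 0 passed the filter, and Amy2b and Cpa1 had no counts.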
